A study of Mus musculus with 4 samples.

Results

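This account concerns 9 genes of lymphocyte egress, homing and tissue residency in mouse lung group 2 innate lymphoid cells (ILC2s). They are S1pr1 and Klf2 of the egress program, the chemokine receptor genes Ccr4, Ccr8, Ccr9, Cxcr4 and Cxcr6, and Itgae and Cd69, which mark or hold cells in tissue. They were taken by gene name from a table of 22554 genes, where all 9 were present, and all 9 passed the filter on low counts that left 17651 tested genes. ILC2s were sorted from lungs of BALB/c mice aged 6 weeks as lineage-negative cells bearing CD45, CD127 and ST2, and by the labels all of them were cultured overnight with IL-2, IL-7 and IL-33. The study's text describes the sequenced cells as activated ILC2s kept for a day with or without the compound. Its general culture method adds IL-33 only after a day with IL-2, IL-7 and the compound. A legend of the study gives the reverse order for a similar culture. How long these cells saw IL-33 is therefore uncertain. The 2 groups differed in what was added to the culture, namely vehicle (labeled Control) or compound 5D, a small molecule that blocks Orai calcium channels, and each had 2 libraries. The sources used here do not say whether the libraries came from separate mice or cultures, so the p-values measure only the spread between these libraries, which may be technical.

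Total counts came to 23239853 and 20096555 in vehicle replicates 1 and 2 and to 26912708 and 28697265 in 5D replicates 1 and 2, the order in which values are given throughout. Both 5D libraries were deeper. The ILC2 identity of the cells was checked first. All 12 listed ILC2 markers were present, with a summed level of 11039 and 10849 normalized CPM (counts scaled to the library's upper quartile and total) with vehicle, and of 10184 and 10625 with 5D. By an unadjusted p-value under 0.05 from edgeR, 4 of these markers were lower with 5D (Il5, Klrg1, Thy1 and Il2ra). By the same threshold 1 was higher (Il1rl1, which encodes ST2). Of all tested genes, 3.84% were lower and 3.5% higher at that threshold. The adjusted p-values of the named markers lay between 0.0877 and 0.657 from edgeR. Il5 was the most abundant of the 12 in the sum. The remaining markers had log2 fold changes between -0.073 (Il13) and 0.10 (Rora), with Gata3 at 0.0079. Markers of other cells were low beside those of ILC2s. Several of their sums were nonetheless above the normalized CPM of S1pr1 (8.53 to 12.6) and of the scarcer genes described below. The 8 measured T cell markers summed to between 36.2 and 42.2 normalized CPM, with Cd4 at 0 counts in every library, which allows up to 3 counts each (0.105 to 0.150 normalized CPM). Cd28 had 4.82 and 2.998 normalized CPM with vehicle and 6.82 and 6.09 with 5D (unadjusted p = 0.0191 from edgeR). It was the only 1 of the 6 tested T cell markers under that threshold. Cd3g, the most abundant of them, had a log2 fold change of 0.10. Cd3d, Cd3e and Lck had -0.032, -0.023 and -0.078, and Trac, with at most 8 counts in a library, had -1.34. The 5 measured markers of NK cells and ILC1s summed to 50.3 and 46.0 with vehicle and 70.7 and 53.9 with 5D, nearly all of it Gzma (unadjusted p = 0.00845 from edgeR). Prf1, the other tested marker of these cells, differed in the opposite direction, with a log2 fold change of -0.74. It had 32 and 27 counts with vehicle and 3 and 43 with 5D. Ncr1, Eomes and Tbx21 had at most 7 counts in a library. The 4 ILC3 markers summed to between 21.2 and 31.9, the 2 B cell markers to between 13.6 and 19.4, the 6 myeloid markers to between 3.70 and 7.25, and the 5 granulocyte and mast cell markers to between 1.95 and 4.72 normalized CPM. Among 6 epithelial and fibroblast markers, which summed to between 25.5 and 27.8 with nearly all of it Epcam, Scgb1a1, Col1a2 and Pdgfra were at 0 counts in every library. The part of these markers in the differences given here was not tested. In such bulk libraries, fewer cells that express a gene and less RNA per cell cannot be told apart.

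Lymphocytes leave tissues by following sphingosine-1-phosphate (S1P), a lipid that is abundant in blood and lymph and is sensed through the receptor S1PR1. The transcription factor KLF2 drives S1pr1 transcription, and CD69, a surface protein of activated and of tissue-resident cells, binds S1PR1 and removes it from the surface. Chemokine receptors direct cells toward tissues that make their ligands, and the integrin αE, encoded by Itgae, pairs with β7 to bind E-cadherin on epithelium. Tissue-resident lymphocytes, to which lung ILC2s belong, typically carry CD69 and little S1PR1.

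Cxcr6, the receptor gene for CXCL16, was by far the most abundant of the 9 genes. Levels are compared between genes as normalized CPM per kilobase of exon. On this scale Cxcr6 stood at 799 (range over the 4 libraries 757 to 838), at the 99.8th percentile of the tested genes with a known length. Ccr8, the receptor gene for CCL1, followed at 61.6 per kilobase (59.7 to 62.7). Ccr4, which encodes the receptor for CCL17 and CCL22, stood at 11.9 (9.98 to 14.0) and Cd69 at 10.1 (9.73 to 10.6). The ranges of Ccr4 and Cd69 overlapped, and their order differed between the groups. In the vehicle libraries Ccr4 stood at 14.0 and 13.2 per kilobase, above Cd69 at 9.73 and 9.86. In the 5D libraries Ccr4 stood at 9.98 and 10.52 and Cd69 at 10.2 and 10.56, so that Ccr4 lay just below Cd69 in each. This order depends on the annotated exon lengths, 3093 bp for Ccr4 and 6509 bp for Cd69. Without division by length, Cd69 had the higher normalized CPM in each library.

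**Figure D1:**
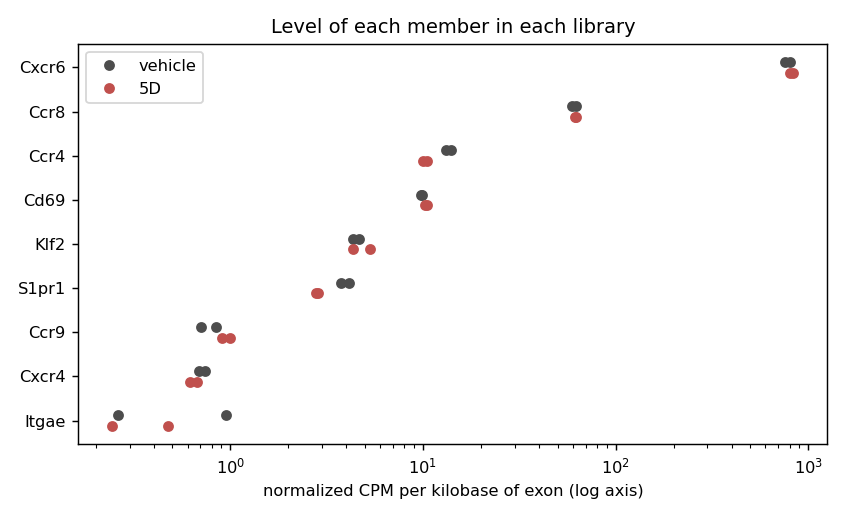
Level of the 9 genes in normalized CPM per kilobase of exon on a log axis, with 1 point per library (gray, vehicle, and red, 5D, with 2 libraries each). Cxcr6 lies at 757 to 838 and Ccr8 at 59.7 to 62.7, whereas Ccr9, Cxcr4 and Itgae lie between 0.244 and 0.999.

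Both egress genes were at intermediate levels. Klf2 stood at 4.67 per kilobase (4.33 to 5.32) and S1pr1 at 3.39 (2.80 to 4.14), and S1pr1 was below Klf2 in each library on this scale. That order rests on the annotated exon lengths, 3046 bp for S1pr1 and 1847 bp for Klf2. Before division by length, S1pr1 had the higher normalized CPM in every library except 5D replicate 2. The lowest were Ccr9, the receptor gene for the gut and thymus chemokine CCL25, at 0.863 (0.706 to 0.999), Cxcr4, the CXCL12 receptor gene, at 0.680 (0.619 to 0.738), and Itgae at 0.482 (0.244 to 0.949). The ranges of these 3 genes overlapped. The order of the 9 means was the same with levels scaled to the library total or after TMM. The annotated exons of Ccr9 cover 10260 bp, against 1175 bp to 6509 bp for the other members, and its level per kilobase depends on that model.

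After adjustment over the 17651 genes, 0 of the 9 genes were higher and 0 lower in 5D-treated ILC2s at an adjusted p-value under 0.05 by edgeR's quasi-likelihood test. The same test called 0.0963% of all tested genes, with 0.0283% higher and 0.068% lower, and DESeq2, which gave no adjusted p-value for Klf2, Ccr9, Cxcr4 and Itgae, and limma-voom likewise called 0 of the 9. At an unadjusted p-value under 0.05, S1pr1 and Ccr4 were lower and 0 were higher. Of all tested genes, 3.84% were lower and 3.5% higher at that threshold, 7.34% in all. Each 5D library lay below each vehicle library for 3 of the 9 (S1pr1, Ccr4 and Cxcr4, against 18.8% of all tested genes) and above them for 2 (Ccr9 and Cd69, against 18.7%), so the groups did not overlap for 5 of 9, where this was so for 37.6% of all tested genes. The median log2 fold change of the 9 genes was 0.021, against -0.0016 over all tested genes.

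**Figure D2:**
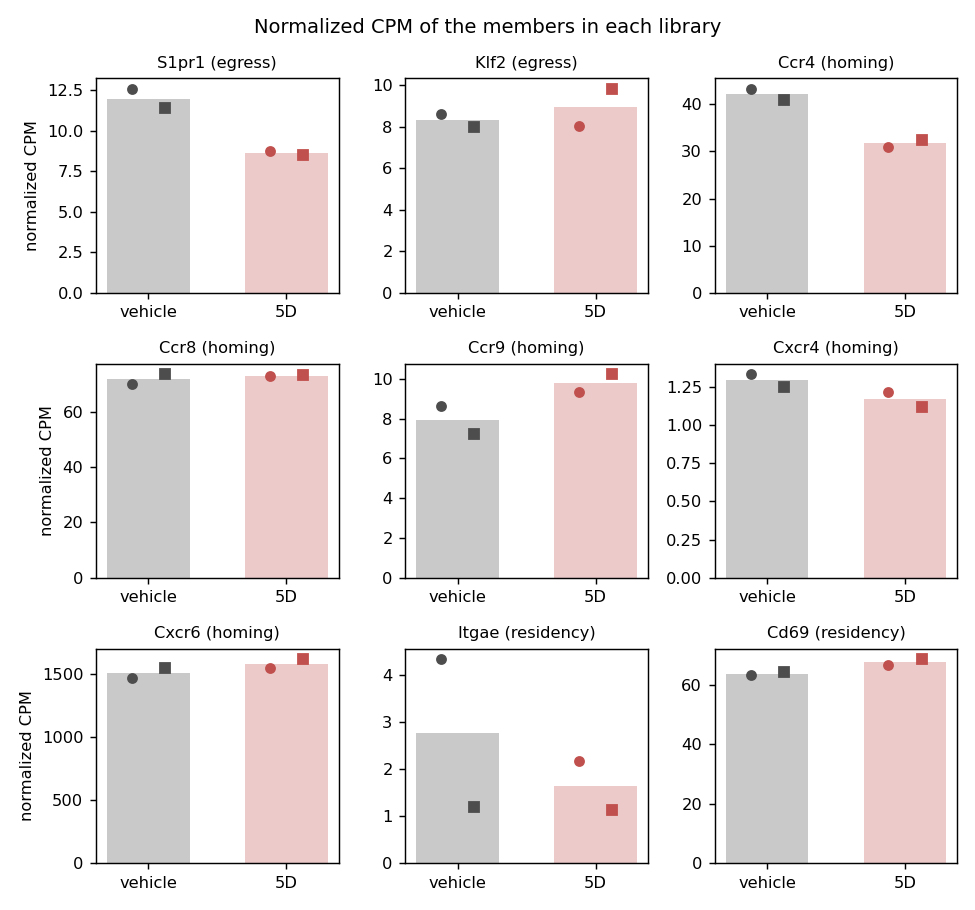
Normalized CPM of each gene by library on linear axes from 0, with 1 circle for replicate 1 and 1 square for replicate 2 of each group and a bar at the group mean (n = 2). S1pr1 and Ccr4 lie lower in both 5D libraries, Ccr8 and Cxcr6 overlap between the groups, and the vehicle libraries of Itgae stand at 4.35 and 1.20.

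S1pr1 (ENSMUSG00000045092.8), the gene of the S1P receptor that guides exit from tissue, lies on the minus strand of chromosome 3 of mm10 from 115710433 to 115715072. It had 293 and 228 counts with vehicle and 237 and 244 with 5D. Its normalized CPM was 12.6 and 11.4 with vehicle and 8.73 and 8.53 with 5D. Both 5D libraries were below both vehicle libraries, and the gap between the groups was wider than that within either. The group means were 12.004 ± 0.864 and 8.63 ± 0.141 normalized CPM (SD, n = 2 each), a fitted change of -28.1%. The log2 fold change was -0.48 (standard error 0.17, 95% interval -0.84 to -0.11), with an unadjusted p-value of 0.0144 and an adjusted p-value of 0.566 from edgeR. Over the alternatives the adjusted value lay between 0.442 and 0.873. Leaving out vehicle replicate 1 gave a log2 fold change of -0.40 (unadjusted p = 0.0801 from edgeR), and leaving out 5D replicate 2 gave -0.46 (unadjusted p = 0.0562 from edgeR). The study shows S1pr1 and Klf2 from these same libraries, so the values are not independent of that choice.

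Pecam1, an endothelial marker that lymphocytes can also express, differed in the same direction as S1pr1, a gene that endothelium expresses as well. Its normalized CPM was 23.7 and 21.3 with vehicle and 19.9 and 15.7 with 5D, a log2 fold change of -0.34 (unadjusted p = 0.0392, adjusted p = 0.642 from edgeR). Of the 5 listed endothelial markers, Pecam1 alone was among the 22554 genes, and its part in the S1pr1 difference was not tested.

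Klf2 (ENSMUSG00000055148.7, chromosome 8 from 72319033 to 72321656, plus strand), which encodes the transcription factor upstream of S1pr1, overlapped between the groups. Its normalized CPM was 8.61 and 7.995 with vehicle and 8.03 and 9.83 with 5D. The vehicle values and the lower 5D value lay close together, and 5D replicate 2 stood above them. It differed by a log2 fold change of 0.10 (95% interval -0.31 to 0.51, adjusted p = 0.951 from edgeR), and it was -0.050 without 5D replicate 2 and 0.24 without 5D replicate 1. The interval still allows a level up to 0.31 lower on the log2 scale.

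Within a library the ratio of 2 counts does not depend on how libraries are scaled. The S1pr1 count was 1.47 and 1.43 times the Klf2 count with vehicle, and 1.09 and 0.868 times with 5D. Against Cd69, S1pr1 had 0.199 and 0.178 counts per count with vehicle and 0.131 and 0.124 with 5D. Both ratios were lower in both 5D libraries, by 0.57 and 0.56 on the log2 scale. A two-sided exact permutation test of 2 against 2 libraries gave p = 0.333 for each, which is the smallest it allows.

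Ccr4 (ENSMUSG00000047898.7, minus strand of chromosome 9 from 114490316 to 114504916) had the lowest unadjusted p-value among the members. Its receptor is carried by type 2 lymphocytes and draws them toward CCL17 and CCL22. It had 1007 and 818 counts with vehicle and 838 and 930 with 5D, which made 43.4 and 40.9 against 30.9 and 32.5 normalized CPM. The groups did not overlap, and the 2 libraries of each lay within a few normalized CPM of each other. The group means were 42.1 ± 1.75 and 31.7 ± 1.17 normalized CPM (SD, n = 2 each), a fitted change of -24.7%. Its log2 fold change was -0.41 (standard error 0.10, 95% interval -0.63 to -0.19), with an unadjusted p-value of 0.00153 and an adjusted p-value of 0.356 from edgeR. Over the alternatives the adjusted value lay between 0.0936 and 0.587, and the log2 fold change between -0.45 and -0.37.

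Ccr8 and Cxcr6, the abundant receptor genes, overlapped between the groups. Ccr8 (ENSMUSG00000042262.5, chromosome 9 from 120092114 to 120094906, plus strand) had 70.1 and 73.7 normalized CPM with vehicle and 72.8 and 73.1 with 5D, and both 5D values lay between the vehicle values. Its log2 fold change was 0.021 (95% interval -0.14 to 0.18, adjusted p = 0.982 from edgeR), which turned to -0.018 when vehicle replicate 1 was left out. Cxcr6 (ENSMUSG00000048521.8, chromosome 9 from 123806475 to 123811760, plus strand) had 1462 and 1548 normalized CPM with vehicle and 1544 and 1617 with 5D, with the groups overlapping. Its log2 fold change was 0.070 (95% interval -0.016 to 0.16, adjusted p = 0.755 from edgeR). Its unadjusted p-value was 0.102 from edgeR, 0.0335 from limma-voom and 0.0288 without vehicle replicate 2.

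Relative to Ccr8, Ccr4 had 0.618 and 0.555 counts per count with vehicle and 0.424 and 0.445 with 5D, a difference of -0.43 on the log2 scale. Relative to Cxcr6 it had 0.0296 and 0.0264 with vehicle and 0.0200 and 0.0201 with 5D, a difference of -0.48. Both ratios were lower in both 5D libraries, with the exact permutation p at its smallest value of 0.333. Ccr8 per Cxcr6 was 0.0480 and 0.0476 with vehicle and 0.0471 and 0.0452 with 5D, a difference of -0.049 with the same p. Among the 5 receptor members, Ccr4 made up 1.68% and 1.503% of the summed level per kilobase with vehicle and 1.14% and 1.15% with 5D, whereas Cxcr6 made up 91.0% to 91.8% and Ccr8 6.82% to 7.17%.

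Promoter sequences are shown for Ccr4, the receptor member with the lowest unadjusted p-value (adjusted p = 0.356 from edgeR), beside Ccr8 and Cxcr6, the more abundant receptor genes, whose groups overlapped. RefSeq windows (GRCm38.p6) were matched for 6 of the 9 members (Klf2, Ccr4, Ccr8, Ccr9, Cxcr4 and Cxcr6), and the 250 bases before the start site were searched on both strands. The motifs were GGAAA, the core bound by the calcium-dependent factor NFAT, TGANTCA, bound by AP-1, and CACCC, the core bound by KLF factors. Capitals mark these motifs. The windows are chr9:114496545-114496794 (minus strand) for Ccr4, chr9:120091883-120092132 (plus strand) for Ccr8 and chr9:123806227-123806476 (plus strand) for Cxcr6.
Ccr4: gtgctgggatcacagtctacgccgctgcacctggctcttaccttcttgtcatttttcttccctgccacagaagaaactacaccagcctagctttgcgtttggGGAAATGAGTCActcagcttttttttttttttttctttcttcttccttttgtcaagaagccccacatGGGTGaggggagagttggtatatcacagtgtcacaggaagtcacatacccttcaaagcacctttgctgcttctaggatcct
Ccr8: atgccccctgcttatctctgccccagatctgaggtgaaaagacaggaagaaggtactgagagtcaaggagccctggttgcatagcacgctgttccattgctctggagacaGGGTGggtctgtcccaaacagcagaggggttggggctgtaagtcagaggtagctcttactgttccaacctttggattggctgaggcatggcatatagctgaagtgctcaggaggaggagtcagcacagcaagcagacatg
Cxcr6: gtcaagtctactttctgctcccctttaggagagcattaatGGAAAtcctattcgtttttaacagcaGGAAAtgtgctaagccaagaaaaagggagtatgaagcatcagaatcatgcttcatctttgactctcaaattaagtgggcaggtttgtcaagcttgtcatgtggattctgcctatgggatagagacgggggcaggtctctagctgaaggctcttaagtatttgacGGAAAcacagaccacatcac
The Ccr4 window held the NFAT core at bases 103 to 107, directly followed by the AP-1 motif at bases 108 to 114, and a KLF core at bases 170 to 174. Ccr8 held a KLF core and neither other motif, and Cxcr6 held 3 NFAT cores. Over all 32817 RefSeq windows of this length, 55.6% held the NFAT core, 52.0% the KLF core and 6.75% the AP-1 motif. An NFAT core and an AP-1 motif at most 9 bases apart were held by 166 windows, which is 0.506%, and in direct contact by 24, which is 0.0731%. The pairing was chosen after the Ccr4 window was seen. Of the 6 matched members, 4 held the NFAT core, 5 the KLF core and 1 the AP-1 motif. Start sites differ between annotations, and the GENCODE model of Ccr4 extends upstream of the RefSeq start. These matches are letters in a window and not measured binding.

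Ccr9 (ENSMUSG00000029530.16, chromosome 9 from 123678439 to 123784330, plus strand), best known for homing to the small intestine, was the member with the largest positive fold change. Its normalized CPM was 8.61 and 7.25 with vehicle and 9.32 and 10.2 with 5D, and the 5D libraries lay above the vehicle libraries by less than the vehicle libraries lay apart. Its log2 fold change was 0.30 (95% interval -0.099 to 0.70, adjusted p = 0.779 from edgeR). It was between 0.18 and 0.43 with a library left out. Of its exon positions, 18.8% overlap AC165425.1 on the opposite strand, 2.62% overlap Gm17200 and 22 bp overlap Slc6a20a on the opposite strand. Gm17200 had 0 and 4 counts with vehicle and 30 and 0 with 5D, Slc6a20a had 3 and 0 with vehicle and 5 and 8 with 5D, and AC165425.1 was not analysed here. Whether the counting used strand is not given in the sources used here, so the Ccr9 counts are uncertain.

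Cxcr4 (ENSMUSG00000045382.6, chromosome 1 from 128588199 to 128592293, minus strand), the bone marrow homing receptor gene, had few counts, with 31 and 25 with vehicle and 33 and 32 with 5D. Its normalized CPM was 1.33 and 1.25 with vehicle and 1.22 and 1.12 with 5D. Both 5D values lay just below both vehicle values. The log2 fold change was -0.15 with a 95% interval from -1.09 to 0.80 (adjusted p = 0.980 from edgeR), which allows a difference in either direction.

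**Figure D3:**
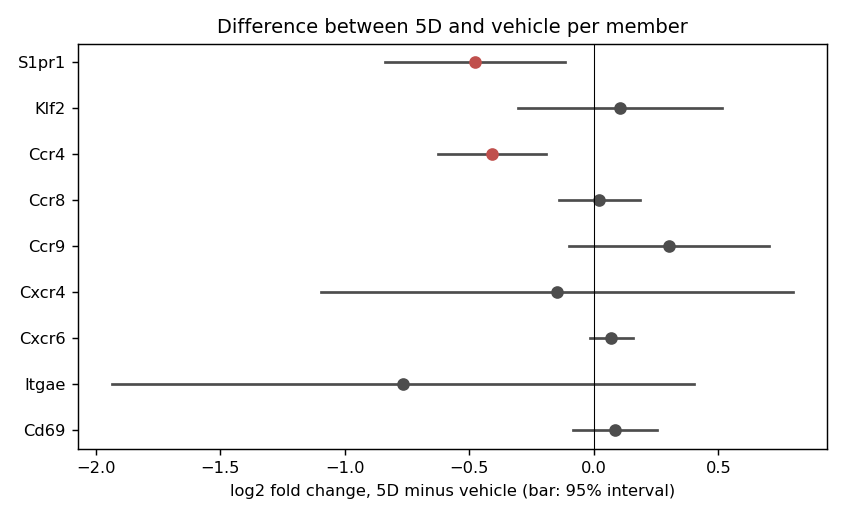
Log2 fold change of each gene, 5D minus vehicle, with its 95% interval from edgeR (n = 2 libraries per group). The intervals of S1pr1 (-0.84 to -0.11) and Ccr4 (-0.63 to -0.19), drawn with red points, lie below 0 before adjustment, and those of Itgae and Cxcr4 are the widest.

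Cd69 (ENSMUSG00000030156.5, chromosome 6 from 129267325 to 129275436, minus strand), the retention gene whose product opposes S1PR1, had 63.3 and 64.2 normalized CPM with vehicle and 66.5 and 68.7 with 5D. Both 5D libraries were higher, by a few percent. Its log2 fold change was 0.085 (standard error 0.08, 95% interval -0.082 to 0.25, adjusted p = 0.878 from edgeR). The Cd69 count was 7.36 and 8.03 times that of Klf2 with vehicle and 8.28 and 6.99 times with 5D, with the groups overlapping.

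Itgae (ENSMUSG00000005947.11, chromosome 11 from 73090583 to 73147446, plus strand), which encodes CD103, had 101 and 24 counts with vehicle and 59 and 32 with 5D. Its normalized CPM was 4.35 and 1.20 with vehicle and 2.17 and 1.12 with 5D. Vehicle replicate 1 stood apart, and the other 3 libraries lay at or below 2.17. The log2 fold change was -0.77 (95% interval -1.93 to 0.40, adjusted p = 0.824 from edgeR), which turned to 0.45 without vehicle replicate 1 and was -1.40 without vehicle replicate 2 (unadjusted p = 0.000459, adjusted p = 0.0749 from edgeR), so that 1 library decided its sign. Itgb7, which encodes the β7 partner of αE, was at 666 and 680 normalized CPM with vehicle and 717 and 665 with 5D.

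**Figure D4:**
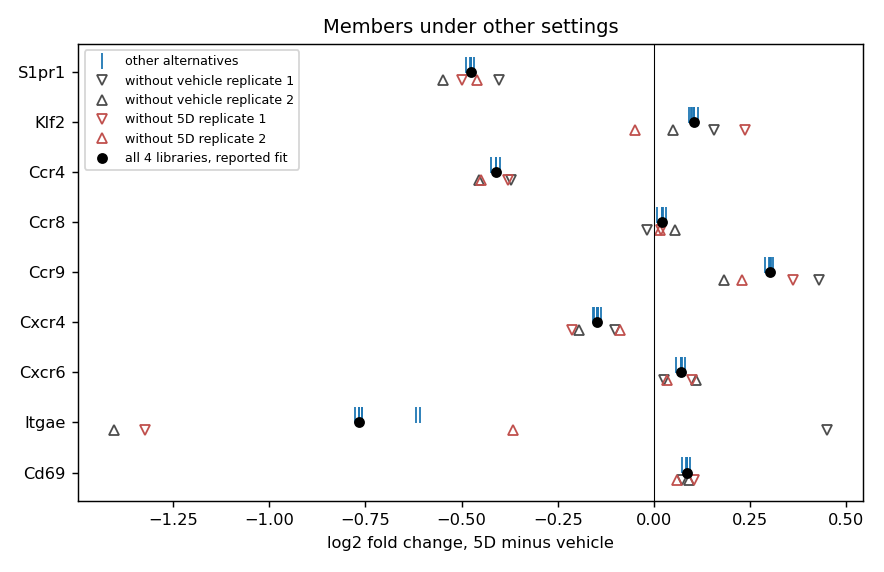
Log2 fold change of each gene, 5D minus vehicle, in the reported fit (black), with 1 library left out (triangles) and under the other alternatives (blue ticks). S1pr1 stays between -0.55 and -0.40 and Ccr4 between -0.45 and -0.37, whereas Itgae runs from -1.40 to 0.45.

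Other genes of the same processes were examined in 5 lists of 84 genes, of which 78 were measured and 64 were tested, and Cxcr1, Ackr1, Ackr3, Ptgdr2, Ccl8 and Zfp683 were not analysed here. At an unadjusted p-value under 0.05, 4 of the 64 were higher and 5 lower with 5D, where 3.5% and 3.84% of all tested genes were, and 0 passed an adjusted p-value under 0.05 by edgeR. The lists were chosen with earlier results of these data known, so these counts stand beside the shares as a description only. The counts for each list are at the same unadjusted threshold and have the same background. The median log2 fold change was -0.028. Of the 64, the groups did not overlap for 13 with 5D above and 17 with 5D below, against 18.7% and 18.8% of all tested genes.

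In the S1P pathway list, 17 of 21 genes were tested, with 1 higher and 1 lower at an unadjusted p-value under 0.05 and a median log2 fold change of -0.016. Sgpl1, the lyase that degrades S1P, had 89.6 and 84.8 normalized CPM with vehicle and 97.4 and 102.6 with 5D (log2 fold change 0.20, standard error 0.07, unadjusted p = 0.0160, adjusted p = 0.566 from edgeR). The groups did not overlap, with 5D higher. Grk2, a kinase that desensitizes S1PR1 and chemokine receptors, had 323 and 349 with vehicle and 306 and 315 with 5D (log2 fold change -0.11, unadjusted p = 0.0484, adjusted p = 0.675 from edgeR). The most abundant genes per kilobase, Gnai2 and Gnai3, encode inhibitory G proteins through which these receptors signal. Their log2 fold changes were -0.044 and 0.086, and neither passed the unadjusted threshold.

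Among 13 tested of 20 other chemokine and chemoattractant receptor genes, 1 was higher and 2 were lower at an unadjusted p-value under 0.05. Ccr7, the receptor gene for homing to lymph nodes, had 23.1 and 29.3 normalized CPM with vehicle and 16.8 and 13.9 with 5D. The groups did not overlap. Its log2 fold change was -0.77 (standard error 0.15, 95% interval -1.10 to -0.43, unadjusted p = 0.000355, adjusted p = 0.165 from edgeR). The other 2 rested on few counts. Cxcr2 had 0 and 1 counts with vehicle and 10 and 24 with 5D, and Cx3cr1 had 6 and 21 with vehicle and 0 and 5 with 5D. The most abundant of the list per kilobase were Ccr2, with a log2 fold change of 0.10 (unadjusted p = 0.0508, adjusted p = 0.678 from edgeR), and Gpr183, a receptor for oxysterols, with 0.062.

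The ligand genes of the receptors were at low levels in these cells. Of 8 listed ligand genes, 7 were measured and 4 tested. Ccl25 was the most abundant, at 8.40 and 6.75 normalized CPM with vehicle and 6.12 and 5.49 with 5D (log2 fold change -0.39, adjusted p = 0.752 from edgeR), and Cxcl16 stood at between 0.258 and 0.999. Ccl22 passed the unadjusted threshold on 13 counts in a single 5D library with 0 counts in the other 3 libraries.

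All 16 integrin and adhesion receptor genes were tested, and 1 was higher and 0 lower at an unadjusted p-value under 0.05. Itgb3, an integrin β chain, had 448 and 447 normalized CPM with vehicle and 460 and 516 with 5D (log2 fold change 0.13, unadjusted p = 0.0404, adjusted p = 0.645 from edgeR). Itgb7 and Selplg, a ligand of selectins, were the most abundant per kilobase, with log2 fold changes of 0.037 and -0.028 and 95% intervals of -0.062 to 0.14 and -0.12 to 0.059.

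Among 14 tested of 19 genes of the residency program, 0 were higher and 2 were lower at an unadjusted p-value under 0.05. Prdm1, which encodes the residency factor Blimp-1, had 68.2 and 76.6 normalized CPM with vehicle and 53.7 and 63.4 with 5D (log2 fold change -0.31, standard error 0.10, unadjusted p = 0.00917, adjusted p = 0.532 from edgeR). Nr4a1, an immediate-early gene, had 18.7 and 25.7 with vehicle and 14.5 and 17.5 with 5D (log2 fold change -0.47, standard error 0.17, unadjusted p = 0.0171, adjusted p = 0.566 from edgeR). In both, each 5D library lay below each vehicle library. Klf6 and Tgfbr2, the most abundant per kilobase, had log2 fold changes of -0.11 and 0.11.

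**Figure D5:**
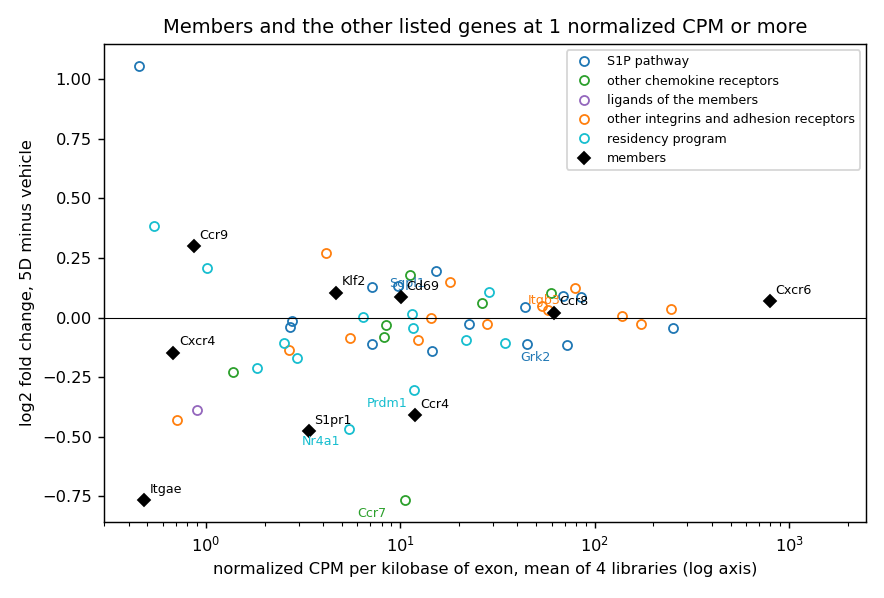
Log2 fold change, 5D minus vehicle, against the mean level per kilobase of exon (log axis) for the 9 members (black diamonds) and 50 listed genes with a mean of at least 1 normalized CPM (open circles, colored by list), where names mark the listed genes at an unadjusted p-value under 0.05. Ccr7 lies at -0.77 and Nr4a1 at -0.47, beside S1pr1 at -0.48 and Ccr4 at -0.41, while Cxcr6 and Ccr8 lie at 0.070 and 0.021.

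The genes most like Ccr4 and S1pr1 over the 4 libraries were sought among tested genes with a mean of at least 10 normalized CPM, by the Euclidean distance between log2 levels centered on each gene's mean. For Ccr4 these were Neurl4, mt-Nd3 and Nat10, at distances of 0.054, 0.057 and 0.065. Nat10, for example, had 58.9 and 59.1 normalized CPM with vehicle and 43.6 and 45.9 with 5D. For S1pr1 they were Arnt2, Scd2 and Fancb, at distances of 0.041, 0.062 and 0.062. Scd2, a lipid desaturase gene, had 114 and 101 normalized CPM with vehicle and 78.4 and 80.3 with 5D. With 4 libraries such likeness is a description only.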

How the data were processed

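RNA of 4 libraries of sorted lung ILC2s was measured, 2 with vehicle and 2 with 5D. Per the study's methods and the submitters' processing notes, a low-input cDNA kit was used, and reads were aligned with STAR 2.6.1 to mm10 with GENCODE M21 and quantified in Partek. The values deposited by the authors are estimated counts that had not been normalized, with 57.1% to 60.7% of a library's values within 0.005 of a whole number, and these were rounded here. Upper quartile factors and the study's filter (mean normalized count of at least 1, summed at least 10) were used. The test was edgeR 4.0.16's quasi-likelihood test in R 4.3.3, two-sided, with Benjamini-Hochberg adjustment over all tested genes, in place of Partek's Gene Set Analysis. Each standard error was obtained by dividing the size of the log2 fold change by the square root of F. The code was tested on simulated data.

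The members and lists were chosen with earlier results of these data known. Named are the 9 members, listed genes at an unadjusted p-value under 0.05, the 2 most abundant per kilobase of each list, the 3 genes most like each of the 2 members with the smallest p-values, and genes that share exon positions with a member. Cell type markers are named beside the results they bear on. Alternatives were TMM, DESeq2 1.42.0 size factors and Wald test, limma-voom (limma 3.58.1), no filter, filterByExpr, the replicate number as a block and leaving out each library in turn, where the lone library of a group is assumed to vary like the other group. The upper quartile recomputed after the filter was chosen after seeing the data. Overlaps come from GENCODE M21, and BLAST 2.17.0 found stretches of at least 150 nt at 95% identity in other genes for Ccr9 alone, those of its overlapping genes. Figures were drawn with matplotlib 3.10.9.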

Additional observations from a re-analysis of the deposited data

How the results depend on the processing

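No member passed an adjusted p-value under 0.05 in either direction by edgeR or under any of the 12 alternatives. S1pr1, Ccr4, Ccr9, Cxcr4, Cxcr6 and Cd69 kept the sign of their log2 fold change in all 12. With a library left out, Klf2 ran from -0.050 (without 5D replicate 2) to 0.24, Ccr8 from -0.018 (without vehicle replicate 1) to 0.054 and Itgae from -1.40 to 0.45 (without vehicle replicate 1), and the causes were not tested. Ccr4 stayed under an unadjusted p-value of 0.05 in all 12 alternatives and S1pr1 in 10, the exceptions being those without vehicle replicate 1 and without 5D replicate 2. The number of members higher at an unadjusted p-value under 0.05 was 1 in place of 0 with limma-voom and with the replicate block, in both cases Cxcr6, and 0 to 1 with a library left out. The number lower was 1 to 3 with a library left out. The median log2 fold change of the members was 0.030 with TMM, 0.0082 with upper quartile factors from the filtered genes (chosen after seeing the data), and -0.050 to 0.051 with a library left out. Of the listed genes, 2 were higher with filterByExpr, which tested fewer genes, and with a library left out 2 to 7 were higher and 2 to 8 lower. The replicate number pairs no libraries by the labels, and the deviations of same-numbered libraries correlated at 0.060 over 8737 genes. Over all genes the calls at an adjusted p-value under 0.05 were 5 higher and 12 lower. They were 9 and 32 with the replicate block, 17 and 43 by DESeq2's Wald test, 9 and 23 by limma-voom, 11 and 35 with no filter, 7 and 19 with filterByExpr, 5 and 18 with the added factors, and 3 to 73 and 12 to 107 with a library left out. DESeq2 gave Klf2, Ccr9, Cxcr4 and Itgae no adjusted p-value. The 95% intervals of Cxcr4 (25 to 33 counts per library) and Itgae (24 to 101 counts, with vehicle replicate 1 apart from the others) were the widest of the members.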
